A study of Mus musculus with 2 samples.

Results

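Lalba, the mouse gene for alpha-lactalbumin (ENSMUSG00000022991), was followed across lung vessel types in a pair of single-cell RNA libraries, 1 from control lungs and 1 from lungs 6 h after an intravenous injection of melanoma cells. It is 1 of the 32285 genes counted, and was selected on its higher level in the capillaries of the injected lungs, so its levels are given as a description. The mice were wild-type C57BL/6 animals. Control mice received PBS, and the others received 400000 B16-F10 cells, a mouse skin melanoma line, in 100 µl through the tail vein. The labels give 2 mice per treatment, whose cells were pooled into 1 library per group. The study's text gives 3 mice per sample for its experiment with 400000 injected cells, and which number holds was not settled. Which cell came from which mouse was not recorded, so spread between mice cannot be given and no difference between the groups was tested. Both libraries hold lung cells sorted for Pecam1 and against Ptprc, the CD31 and CD45 genes, and the B16-F10 library also received melanoma cells sorted by a green dye. General capillary (gCap) cells were taken as cells with 1000 to 5000 genes, under 20% mitochondrial UMIs (unique molecular identifiers, each standing for 1 captured mRNA) and at least 3 UMIs over Gpihbp1, Kit and Aplnr. That gate held 6554 of 8394 control cells and 6614 of 8321 cells of the B16-F10 library.

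Alpha-lactalbumin is a secreted milk protein best known from the lactating mammary gland. It binds the galactosyltransferase B4galt1 in the Golgi and turns it towards lactose, and the complex is called lactose synthase. The protein is related in sequence and fold to the C-type lysozymes, and in mammary epithelium its gene is switched on by prolactin through the kinase Jak2 and the factor Stat5. In the lung, gCap cells line much of the alveolar capillary bed and can act as progenitors, whereas aerocytes (aCap cells) are the large thin cells of gas exchange. Reactive capillary (rCap) cells are the state the study described in gCap cells of lungs with arriving tumour cells, and Lalba stands among its markers.

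In the mouse build GRCm38, Lalba lies at chr15:98480400-98482721 on the minus strand. Its annotated transcript has 4 exons, with the start codon in exon 1 and the stop codon and a 3′ UTR of 292 bases in exon 4. No other annotated gene overlapped it, so its UMIs had no overlapping partner. The 212 bases just before its start are shown because this stretch is the only promoter sequence the level of Lalba can be set against here. It is RefSeq's promoter window for Lalba without the transcribed bases (GRCm38, chr15:98482722-98482933, minus strand), written 5′ to 3′ with no base in capitals because no searched motif was found in it.

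Lalba promoter: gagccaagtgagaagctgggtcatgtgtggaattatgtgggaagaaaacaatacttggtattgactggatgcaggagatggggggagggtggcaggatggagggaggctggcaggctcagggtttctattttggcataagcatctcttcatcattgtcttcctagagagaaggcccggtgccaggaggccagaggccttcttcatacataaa

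Both strands were searched for 6 motifs. For each gene the search covered only the first 212 of the 300 bases of its RefSeq window, the length shown for Lalba. The windows hold 250 bases before the RefSeq start, so the bases nearest that start lay outside the search in every gene. For Lalba the search still ran up to its annotated start. The shares over other genes are therefore not a like-for-like background. The STAT motif TTCNNNGAA was found in 6.04% of 32851 windows cut in this way, the AP-1 motif TGANTCA in 5.89% and the C/EBP motif TTGCNNAA in 8.51%. The E-box CACGTG was found in 4.74%, the TATA box TATAAA in 9.64% and the NF-kB motif in 3.32%. None of these letters occurred in the Lalba window, which says only that they are not in these bases. Among 36 windows of 28 rCap marker genes, cut to the same length, 2 held the STAT motif and 2 the AP-1 motif.

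Totals over all barcodes were 85794655 UMIs for the control and 104978816 UMIs for the B16-F10 library. Kept cells had a median of 7596 UMIs and 3039 genes in the control library and 8652 UMIs and 3288 genes in the B16-F10 library. Of the cell barcodes, 19 were shared between the libraries. Gate cells carried endothelial and gCap markers, at medians of 85 and 77 UMIs per control cell and 90 and 72 UMIs per cell of the B16-F10 library. Their median was 1 UMI of aCap markers and 3 UMIs of artery markers in each library, and 0 UMIs of lymphatic, mural and platelet markers. The gate is a range of a sum and not a cell type. In the B16-F10 library 71.2% of its cells fell in clusters called gCap-like, 14.0% in endothelial clusters that also carried markers of another cell type, 5.02% in the vein-like and 4.85% in the aCap-like clusters. In that library 400 cells lay just outside the cut at a sum of 2 UMIs, with 5 Lalba-positive cells (1.25%), and 347 lay just inside at 3 UMIs, with 4 (1.15%).

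Lalba was close to absent from control gCap cells and present in 5.44% of those from the B16-F10 library. In the control library 22 UMIs were counted in 22 of 6554 cells, or 0.422 counts per 1000000 UMIs of those cells (CPM, 95% exact Poisson interval 0.264 to 0.639). In the B16-F10 library 763 UMIs were counted in 360 of 6614 cells, or 12.95 CPM (12.1 to 13.9). The level was thus 30.7-fold higher, with an interval of 20.1-fold to 49.3-fold, or 4.94 on the log2 scale (4.33 to 5.62). All intervals given here cover counting error only. The share of positive cells was 0.336% (Clopper-Pearson interval 0.210 to 0.508) and 5.44% (4.91 to 6.02), a difference of 5.11 percentage points (Newcombe interval 4.56 to 5.69). Thinned to 2000 UMIs per cell, the shares were 0.108% and 2.06%, with 51 and 68 cells too shallow to enter. No control cell held more than 1 Lalba UMI, whereas 142 cells of the B16-F10 library (2.15%) held 2 or more.

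Of 14340 other genes that reached 50 UMIs in both gates together, 615 (4.29%) were at least 2-fold higher in the B16-F10 library, and Lalba ranked 21 of 14341 by its ratio. The 43 other rCap markers, which the study chose partly on these libraries, were all higher, and 30 of them by at least 2-fold, with a median of 1.39 on the log2 scale. Outside the gate, 0 of 1840 control cells had a Lalba UMI, which allows a share of up to 0.163%. There, 10 of 1707 cells of the B16-F10 library had 1 UMI each (0.586%).

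Across vessel types the Lalba UMIs lay mainly in gCap-like cells. These types were clusters named by marker genes, made without Lalba, the 43 listed rCap markers and the interferon genes. In the B16-F10 library gCap-like cells held 704 UMIs in 321 of 4782 cells, a level of 16.8 CPM (15.5 to 18.0). In control gCap-like cells 19 UMIs were found in 19 of 5182 cells, a level of 0.485 CPM (0.292 to 0.757). The level in gCap-like cells was 34.6-fold higher in the B16-F10 library (21.97-fold to 57.8-fold).

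In the B16-F10 library the endothelial clusters with markers of another cell type held 47 UMIs in 36 of 1351 cells, or 6.30 CPM (4.63 to 8.38), at a median of 3537 UMIs per cell. The vein-like cells had 6 UMIs in 6 of 388 cells (1.37 CPM, 0.501 to 2.97), against 0 of 381 control cells, which allows 0.787%. The aCap-like cells had 13 UMIs in 4 of 1063 cells (1.09 CPM, 0.580 to 1.86), and 10 of those UMIs sat in 1 cell that also passed the gCap gate and was called a doublet. No Lalba UMI was found in 1571 control aCap-like cells, which allows 0.191%. In the B16-F10 library, artery-like and LEC-like (lymphatic) cells had no Lalba UMI, at 0 of 138 and 0 of 63 cells, which allows shares of up to 2.17% and 4.76%. The order of vein-like, aCap-like, artery-like and LEC-like cells could not be set at this depth, because their intervals overlapped.

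Within the B16-F10 library the gCap-like level was 15.4-fold the aCap-like level (8.94-fold to 29.0-fold, log2 3.94, or 5.99 without called doublets) and 12.3-fold the vein-like level (5.61-fold to 33.5-fold). Against 3 UMIs in place of none, it was at least 7.23-fold the artery-like and at least 3.27-fold the LEC-like level. The share of cells with a Lalba UMI was 6.71% in gCap-like cells at a median of 8490 UMIs, and 0.376% in aCap-like cells at the greater median of 11385 UMIs. After thinning these shares were 2.61% and 0.190%, with 31 and 9 cells left out. Melanoma-like cells held 1 Lalba UMI in 87 cells, and leukocyte-like cells held 1 in 98. A cluster of 311 endothelial cells led by Sox9 and Csf2, present almost wholly in the B16-F10 library, held 1 Lalba UMI.

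**Figure D1:**
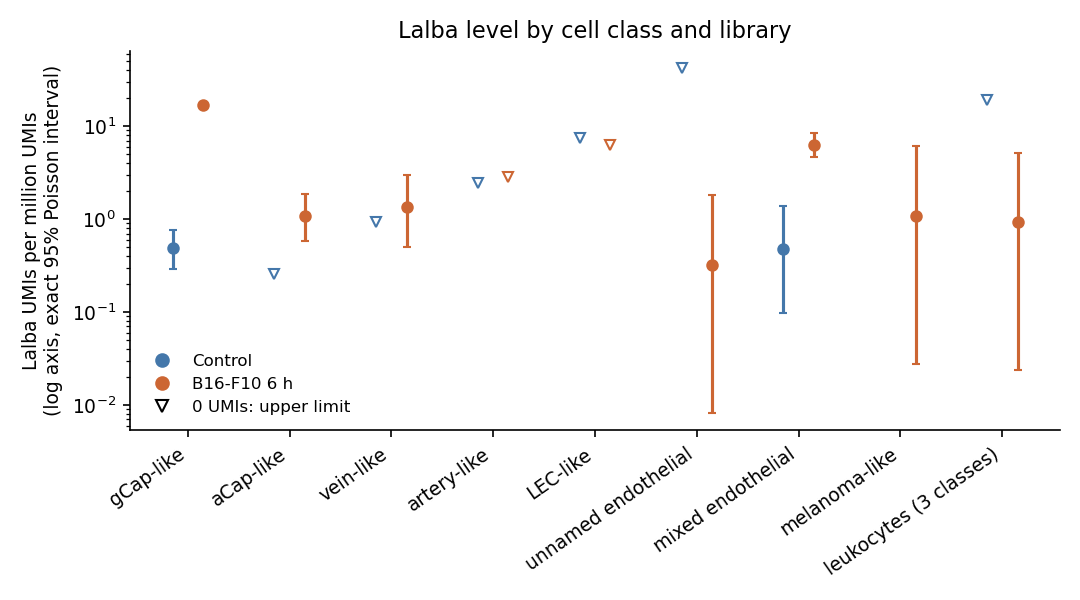
Lalba level in CPM by vessel type in the control and B16-F10 libraries, with points for summed UMIs over total UMIs and bars for exact Poisson intervals. The gCap-like cells of the B16-F10 library stand at 16.8 CPM, whereas the aCap-like and vein-like cells stand at 1.09 and 1.37 CPM.

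Within the gCap-like cells most Lalba UMIs belonged to a cluster of 1242 cells led by Lalba itself, Tmem252, Adamts9, Lama1 and Disp2, of which 1156 came from the B16-F10 library and 86 from the control library. Lalba did not enter the clustering, but Tmem252 and Adamts9, also rCap markers by the study's account, did. The 1156 cells held 583 UMIs, or 52.6 CPM (48.4 to 57.1), and 226 of them were positive (19.6%), 114 with 2 or more UMIs. The 86 control cells of the cluster held 1 UMI. The other 4 gCap-like clusters of the B16-F10 library held 121 UMIs, or 3.91 CPM together, a level 13.4-fold lower (11.04-fold to 16.5-fold). By cluster they stood at 3.93, 1.23, 3.96 and 7.49 CPM. The highest of the 4 was led by Ntrk2, Adam23 and Sema3c, and the lowest by Gm20631, Zswim5 and Gm10503. A cluster mostly of 1 library may reflect that library as well as a cell state, and the 2 cannot be told apart with 1 library per group.

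Lalba UMIs were unevenly spread over the positive cells. Of the 360 positive gate cells of the B16-F10 library 218 held 1 UMI, 63 held 2, 25 held 3, 15 held 4 and 17 held 5. The remaining 22 cells held 6 to 22 UMIs. The mean was 2.12 and the median 1 UMI per positive cell, and the 36 cells with most held 35.3% of all Lalba UMIs. Were the 763 UMIs spread by chance with equal odds over the 6614 cells, about 721 cells would have been positive. In cells thinned to 2000 UMIs the variance of Lalba was 1.59 times its mean. The median over 2091 genes of similar mean was 1.04 times, and Lalba ranked 57 among them. The genes with the highest values included Scd1, Mmrn1, Sftpb and Sele.

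**Figure D2:**
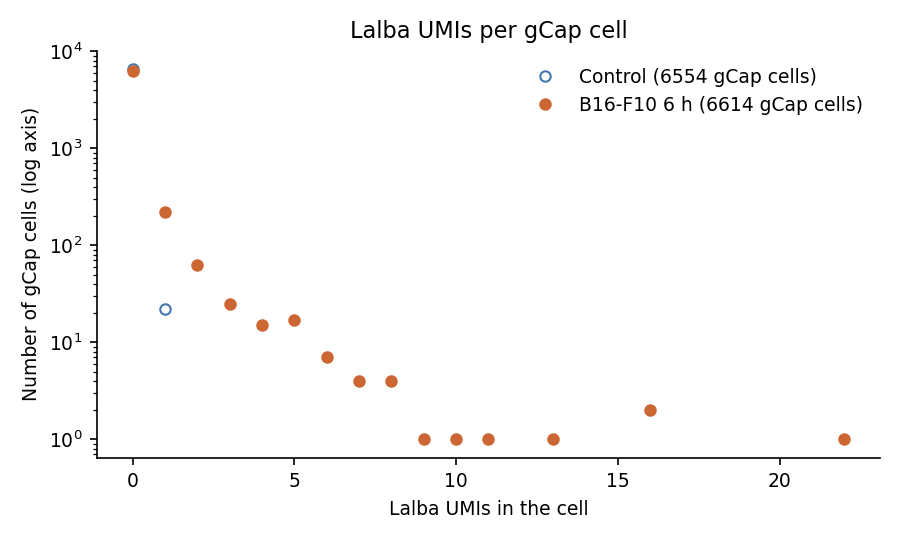
Number of gCap gate cells (log axis) by Lalba UMIs in the cell, in the control and B16-F10 libraries. All 22 positive control cells hold 1 UMI, whereas the B16-F10 library reaches 22 UMIs in a cell.

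Lalba RNA was also present outside cells in the B16-F10 library. Near-empty barcodes with 1 to 100 UMIs held 60 Lalba UMIs in 60 barcodes, or 17.5 CPM (13.3 to 22.5), against 3 UMIs (0.529 CPM) in the control library. From 29 genes of other cell types, free RNA was estimated at 13.9% of the UMIs of gate cells in the B16-F10 library, and from 26 such genes at 5.50% in the control library. At those shares about 143 of the 763 Lalba UMIs in gate cells would come from free RNA, or 2.44 CPM, and 1.52 of the 22 in the control library. The vein-like, aCap-like and melanoma-like levels lay below 2.44 CPM, as did those of 1 gCap-like cluster. The value was set for gate cells, and what part of the Lalba UMIs in other cells was free RNA was not tested. Among 44 genes, Lalba and the 43 other rCap markers, Lalba had the highest ratio of near-empty to gate level, at 1.35. Gadd45g followed at 1.29. The Lalba ratio rests on 60 near-empty UMIs, and at that counting error the order of the highest genes could not be set.

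The positive cells carried the gCap markers at a like summed level. The 8 gCap markers summed to 8190 CPM in the 360 Lalba-positive cells. They summed to 8261 CPM in 360 Lalba-negative gate cells matched on total UMIs (medians 9371.5 and 9370.5 UMIs). The 8 include the gate genes Gpihbp1, Kit and Aplnr, by which both sets were chosen. Those gate genes had a median sum of 23 UMIs in the positive and 17 UMIs in the matched cells. Of 12 gCap identity genes without the gate genes, described below, 8 were lower in the positive cells. Melanoma markers summed to 51.1 and 88.2 CPM, mural markers to 59.4 and 114 CPM, epithelial markers to 178 and 232 CPM, and platelet markers to 68.2 and 50.2 CPM. A melanoma UMI was found in 89 of the 360 positive cells (24.7%) and 97 of the 360 matched cells (26.9%). Doublet calls fell on 11.7% of the positive and 9.44% of the matched cells. Without called doublets the library ratio was 4.74 on the log2 scale, the rCap median by Lalba 0.71 and the JAK-STAT median 0.27, described below.

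The casein genes Csn1s1, Csn2 and Csn1s2b, which encode the main milk proteins, had no UMI in gCap cells of either library. In the B16-F10 and control libraries, Csn1s2a had 3 and 0 UMIs, Csn3 had 2 and 1, and the whey protein gene Wap had 6 and 2. Of the 15 milk genes listed, 5 reached 50 UMIs over both sums. Muc1, a mucin of the milk fat globule, was at 51 and 10 UMIs (log2 2.17, 1.18 to 3.32), and was the only one at least 2-fold higher. Genes of milk fat secretion that many other cells also use were plentiful in both libraries. The xanthine oxidoreductase gene Xdh was at 396 and 446 CPM (log2 −0.17), the milk fat globule gene Mfge8 at 66.8 and 69.9 CPM (log2 −0.07) and the lipid droplet gene Plin2 at 56.6 and 50.9 CPM (log2 0.15). The lactoferrin gene Ltf had 43 and 28 UMIs (log2 0.44). The myoepithelial and basal keratins Krt14 and Krt5 had no UMI in either library, whereas the simple epithelial keratins Krt8 and Krt18 had 95 and 38 UMIs and 85 and 36 UMIs (log2 1.15, 0.59 to 1.73, and 1.06, 0.49 to 1.67).

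The partner of alpha-lactalbumin was present. B4galt1 stood at 148 CPM in the B16-F10 and 110 CPM in the control gCap cells, log2 0.43 (0.39 to 0.48), and at 195 against 154 CPM in Lalba-positive over matched cells (log2 0.34, 0.18 to 0.51). The 10 genes listed for lactose synthesis, which include Gmppb of GDP-mannose synthesis at 0.40, had a median of 0.34 between the libraries. Of the 10, 8 were higher in the B16-F10 library and none by 2-fold or more, beside 4.29% of all genes. They included the glucose transporter gene Slc2a1 at 0.45 (but −0.90, −1.59 to −0.24, in Lalba-positive over matched cells, on 30 and 56 UMIs), whereas the phosphoglucomutase gene Pgm1 stood at −0.31.

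Prlr, the prolactin receptor gene, had 2 UMIs in each library, Prl had none, and Elf5, the mammary alveolar factor, had 4 and 2. The growth hormone receptor gene Ghr, which signals through the same kinase, was at 681 CPM in the B16-F10 and 958 CPM in the control gCap cells (log2 −0.49). Jak2 was at 87.1 and 58.2 CPM (log2 0.58, 0.52 to 0.65), and at 159 against 97.4 CPM in Lalba-positive over matched cells (log2 0.71, 0.51 to 0.90). Stat5a stood at 0.18 and Stat5b at −0.26 between the libraries, and at −0.14 and −0.23 by Lalba, both with intervals that included 0 in the latter. The STAT5 targets Socs2 and Cish, which restrain the pathway, stood at 0.36 and 0.32 between the libraries and at 0.54 and 0.12 by Lalba. Id2, a helix-loop-helix inhibitor, had the largest difference of the list, at 47.6 against 137 CPM between the libraries (log2 −1.53) and at −0.93 (−1.32 to −0.55) by Lalba. The median over the 7 measured genes was 0.18 between the libraries and −0.12 by Lalba.

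Of 7 lysozyme genes, 2 were measured between the libraries and 1 by Lalba. Lyz2, the lysozyme of macrophages, was at 60.0 CPM in the B16-F10 and 25.6 CPM in the control gCap cells (log2 1.23). The 7 macrophage and monocyte markers, Lyz2 among them, summed to 63.9 and 27.4 CPM in the same cells, and their part was not tested. Lyz2 stood at 38.0 against 58.8 CPM in Lalba-positive over matched cells (log2 −0.63, −0.96 to −0.31). Lyz1 stood at −1.20 between the libraries, on 30 and 61 UMIs. The other 5 lysozyme genes had at most 4 UMIs in either library.

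The Lalba-positive and Lalba-negative gCap cells of the B16-F10 library were then set side by side. The cells were chosen by Lalba, so the values describe them and carry no test. Of 9309 genes that reached 50 UMIs in the 2 sums together, 11.1% were at least 1.25-fold higher and 18.1% at least 1.25-fold lower in the positive cells. Of 5714 genes with at least 200 UMIs, the 15 highest held 6 of the listed rCap markers, out of 43 among all those tested. Tmem252 and Adamts9, which the study also counts among the rCap markers, were not in that list of 43. Tmem173, the STING sensor gene, stood at 71.9 against 19.1 CPM (log2 1.91, 1.52 to 2.32) and the adaptor gene Samsn1 at 125 against 35.7 CPM (log2 1.81, 1.52 to 2.10). Xbp1, a factor of secretory cells and of the unfolded protein response, stood at 785 against 328 CPM (log2 1.26), and the kinase gene Pim3 at 662 against 290 CPM (log2 1.19). The other rCap markers were Bhlhe40 at 1.26 and Scarb1, the HDL receptor gene, at 1.16.

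The 9 not in the list were Fabp4, Dnah2os, Immp2l, Prdm11, Tmem252, Sema6b, Fam43a, Ada and Ugcg. Fabp4, a fatty acid carrier, stood first at 4.68, but 373 of its 588 UMIs sat in 1 positive cell, and it stood at −0.26 when only gate cells of gCap-like clusters were compared. Tmem252 was at 1.23, Prdm11 at 1.26, the adenosine deaminase gene Ada at 1.17 and the glucosylceramide synthase gene Ugcg at 1.11. Within the gCap-like clusters these 4 stood at 1.31, 1.10, 1.02 and 1.02.

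The 10 lowest genes included Slc6a2, Tshz2, Prss23, Ednrb, Bgn, Adgrg6, Ccn2, Mgst1 and Mgp, from −2.41 to −1.61. Of these, Slc6a2, Prss23 and Bgn are vein markers, Ednrb is an aCap marker and Adgrg6 an artery marker in the lists used here. The matched negative cells held more cells of such clusters, with 6.67% vein-like and 3.89% aCap-like against 1.67% and 0.278% of the positive cells. Within gCap-like clusters Slc6a2 stood at −1.47, on 9 and 25 UMIs, Prss23 at −0.89, Ednrb at −0.35 and Mgp at −0.27.

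The rCap markers were higher together in Lalba-positive cells. All 43 were higher, 42 of them by at least 1.25-fold beside 11.1% of all genes. Their median was 0.69 and their range 0.30 to 1.91 on the log2 scale, where the median of all genes was −0.01. The study chose these markers partly on these libraries, so the count is no independent evidence. Low in the range were Ifitm3 at 0.30, Synpo at 0.34 and the amino acid transporter gene Slc3a2 at 0.35. Summed over the list, the level was 19535 CPM in the matched negative cells, 26847 CPM in the 218 cells with 1 Lalba UMI and 31875 CPM in the 142 cells with 2 or more. Compared within gCap-like clusters, 41 of the 43 were at least 1.25-fold higher, beside 13.3% of all genes, and the median was again 0.69.

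JAK-STAT genes showed a smaller shift. Of 35 measured, 24 were higher, 16 of them by at least 1.25-fold beside 11.1% of all genes, and the median was 0.27. Without the 5 that are also rCap markers (Bcl3, Cebpd, Il4ra, Osmr and Pim3) 11 of 30 passed that fold and the median was 0.20. The feedback inhibitor genes Socs1 and Socs3 stood at 1.06 (46 and 22 UMIs) and 0.81 (0.72 to 0.91), the kinase gene Pim1 at 0.78 and the phosphatase gene Ptpn2 at 0.72. The receptor gene Lifr stood at −0.52 (−0.66 to −0.38) and the kinase gene Tyk2 at −0.70, on 37 and 60 UMIs.

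Of 30 interferon-response genes 22 were higher in the positive cells, 9 of them by at least 1.25-fold beside 11.1% of all genes. The list median was 0.18. That median was 0.11 without called doublets and 0.43 for cells with at least 2 Lalba UMIs. Irf7, a regulator of interferon genes, stood at 0.91 (0.44 to 1.39), and the immunity-related GTPase genes Igtp and Iigp1 at 0.77 and 0.59. Cmpk2 stood at −0.73 and Ifit3b at −0.59. Inside the cluster led by Lalba, where 224 positive gate cells were matched with 224 negative ones, 27 of the 30 were higher and 19 passed 1.25-fold, beside 9.18% of all genes, with a median of 0.39. Isg15, a ubiquitin-like modifier, stood at 0.85 there (0.66 to 1.04), Ifit1 at 0.77 (0.47 to 1.07) and Rtp4 at 0.75 (0.53 to 0.98). In the other gCap-like clusters, with 95 positive cells, the interferon median was −0.04, and the difference between the clusters was not tested.

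Inside the cluster led by Lalba the rCap markers differed less by Lalba, with 33 of 43 higher and a median of 0.17. Of the 43, 8 were past 1.25-fold beside 9.18% of all genes. Samsn1 stood at 0.79, the chemokine-scavenging receptor gene Ackr3 at 0.66, Myc at 0.60 and Pim3 at 0.52. March3 stood at −0.33 and Inhbb, the activin beta-B subunit gene, at −0.23. In the other gCap-like clusters 21 of 39 measured rCap markers were at least 1.25-fold higher, beside 14.8% of all genes, with a median of 0.38. Of the positive cells, 62.2% lay in the cluster led by Lalba, as against 19.2% of the matched negative cells.

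Genes that define gCap cells tended to be lower. Of 12 identity genes 8 were lower in the positive cells, 5 of them by at least 1.25-fold, beside 18.1% of all genes, with a median of −0.16. Within the gCap-like clusters 12 of 12 were lower, 6 of them by at least 1.25-fold beside 18% of all genes, and the median was −0.37. Hilpda stood at −0.91 (−1.04 to −0.77), the BMP-responsive gene Tmem100 at −0.77 and the adhesion receptor gene Adgrl3 at −0.60 in the whole gate, whereas the lipase gene Lpl and the diaphragm gene Plvap stood at 0.11 each. Summed over the list the level was 11700 CPM in matched negative cells, 10565 CPM in cells with 1 Lalba UMI and 9084 CPM in cells with 2 or more. Arterial genes tended to be lower as well, with 6 of 8 lower, 4 of them by at least 1.25-fold beside 18.1% of all genes. Their median was −0.33 in the whole gate and −0.28 within the gCap-like clusters. The chemokine gene Cxcl12, at −0.61, stands in both the arterial and the gCap identity list.

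The medians of the venous and NF-kB lists changed sign with the cells compared. In the whole gate the venous list had a median of −1.23 and the NF-kB and adhesion list a median of −0.26. At least 1.25-fold lower were 7 of 9 venous and 9 of 18 NF-kB and adhesion genes, beside 18.1% of all genes. Within gCap-like clusters the medians were 0.11 and 0.14, over members that lay on both sides of 0. Inside the cluster led by Lalba alone the venous and NF-kB medians were −0.11 and −0.16, over 7 and 17 measured genes. In the other gCap-like clusters alone they were −0.31 and −0.26, over 6 and 10 measured genes. Both medians were thus below 0 in each part. Why the sign differed when all gCap-like clusters were compared was not tested. The selectin genes Selp and Sele, which let leukocytes roll on the vessel wall, turned from −0.54 and −0.72 to 1.58 (1.00 to 2.20) and 1.41 (0.64 to 2.23), on 99 and 33 UMIs for Selp and 53 and 20 UMIs for Sele. Inside the cluster led by Lalba Selp stood at −0.36 (−0.76 to 0.04) and Sele at 0.79 (0.12 to 1.49). Other members stayed lower within gCap-like clusters, among them Prss23 at −0.89, the von Willebrand factor gene Vwf at −0.62, the lymphangiogenic factor gene Vegfc at −0.61, the macrophage growth factor gene Csf1 at −0.88 and the chemokine gene Cx3cl1 at −0.57. Ribosome biogenesis genes had a median of 0.20 in the whole gate and 0.35 within gCap-like clusters, but −0.09 inside the cluster led by Lalba. Within gCap-like clusters 20 of 20 were higher, 12 of them by at least 1.25-fold beside 13.3% of all genes.

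**Figure D3:**
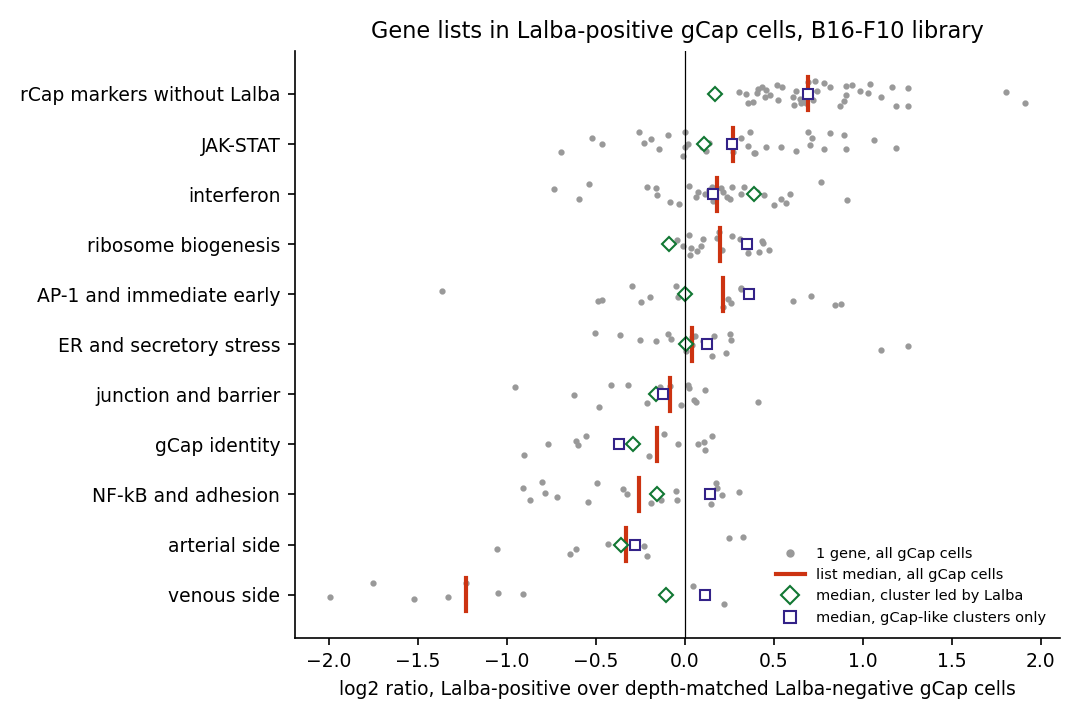
Log2 ratios of Lalba-positive over depth-matched Lalba-negative gCap gate cells of the B16-F10 library by gene list, with a grey dot for each gene, a red bar for the list median, and symbols for the median inside the cluster led by Lalba (diamonds) and within gCap-like clusters (squares). The rCap median is 0.69 in the whole gate and 0.17 inside the cluster, whereas the interferon median is 0.18 and 0.39.

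In the B16-F10 library Lalba rose with the rCap level of the cell. Lalba is itself among the study's rCap markers, and the others were chosen partly on these libraries. The rise is therefore a description and no independent evidence. The gate cells of the B16-F10 library were divided into 5 groups of like size by the summed UMIs of the 43 other rCap markers after thinning to 2000 UMIs. From the lowest to the highest group the Lalba level was 1.15, 1.64, 4.92, 10.6 and 47.0 CPM. The values of 1.15 and 1.64 CPM lay below the 2.44 CPM estimated for free RNA in gate cells. The positive cells numbered 11 of 1321, 18 of 1330, 38 of 1288, 77 of 1340 and 216 of 1267. The share was 0.833% (0.416 to 1.49) in the lowest and 17.05% (15.02 to 19.2) in the highest group, a difference of 16.2 percentage points (14.1 to 18.4). Thinned, the shares were 0.0757%, 0.376%, 0.776%, 1.94% and 7.34%. Depth hardly varied between the groups, with median UMIs from 8571 to 8895.5.

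Few control cells reached the same scores. In the 5 score ranges the control library had 4863, 1143, 376, 105 and 16 gate cells, with 19, 1, 1, 1 and 0 Lalba UMIs. The 0 of 16 cells in the highest range allows a share of up to 18.75%, so Lalba in control cells with high rCap scores could not be set against the B16-F10 library at this depth. The median score was 59 in Lalba-positive and 34 in Lalba-negative cells of the B16-F10 library, and 18.5 and 20 in the control library. The 6 positive vein-like cells had a median of 51.5 against 36 in the other vein-like cells, and the 4 positive aCap-like cells a median of 47 against 25.

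**Figure D4:**
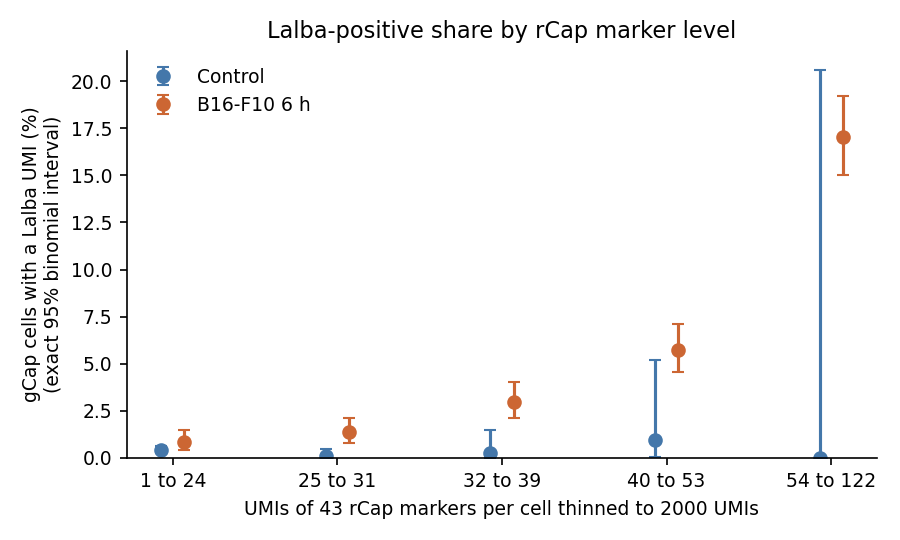
Share of Lalba-positive gCap gate cells of both libraries, in 5 ranges of the summed UMIs of 43 other rCap markers. The sums are from cells thinned to 2000 UMIs, and bars are exact binomial intervals. In the B16-F10 library the share runs from 0.833% to 17.05%. In the control library 4863 cells lie in the lowest range and 16 in the highest.

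Arterial or venous side of the capillary changed the share less. Gate cells of the B16-F10 library with more venous than arterial list UMIs were positive in 6.56% (5.77 to 7.41). Those with equal sums were positive in 4.87% (3.43 to 6.68) and those with more arterial UMIs in 3.95% (3.17 to 4.86). The Lalba level was 15.5 CPM (14.2 to 16.9) on the venous and 9.06 CPM (7.76 to 10.5) on the arterial side. The venous and arterial intervals did not overlap in either measure. Thinned, the venous and arterial shares were 2.26% (1.80 to 2.80) and 1.65% (1.16 to 2.28), on 82 and 36 positive cells, with overlapping intervals. The venous sum rests mostly on Lyve1, which supplied 6122 of the 8098 venous list UMIs of the positive cells.

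Most neighbours of Lalba did not share its higher level in the B16-F10 library. Within 200 kb of the gene 24 others were annotated, 17 were in the files and 9 reached 50 UMIs. The olfactory receptor genes nearest to it, OR5BS1P and Olfr279, had 14 and 6 and 9 and 3 UMIs in the B16-F10 and control gCap cells. Kansl2, of a histone acetyltransferase complex, stood at −0.03 between the libraries, the elongation factor cyclin gene Ccnt1 at −0.04 and the helicase gene Ddx23 at −0.02. Zfp641 stood at −0.59, the adenylate cyclase gene Adcy6 at −0.41 and the calcium channel subunit gene Cacnb3 at 0.09. Only Rnd1, which lies 180700 bases upstream, was at least 2-fold higher, at 17.0 against 2.07 CPM (log2 3.03, 2.75 to 3.33). In Lalba-positive over matched cells Rnd1 stood at −1.44, on 31 and 84 UMIs.

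**Figure D5:**
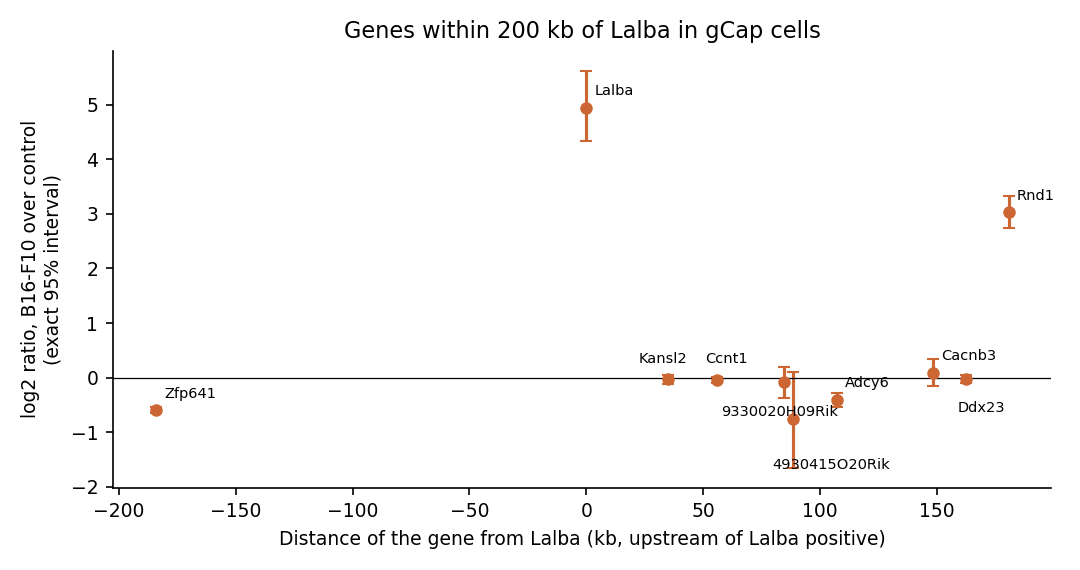
Log2 ratio of the B16-F10 over the control library in gCap gate cells for Lalba and its measured neighbours, by distance from the Lalba gene body in kb, with exact intervals. Lalba at 4.94 and Rnd1 at 3.03 stand above the other neighbours, which lie between −0.76 and 0.09.

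Over 5 vessel types in 2 libraries, the genes whose log2(CPM + 1) was most like that of Lalba were Rnf11 (Pearson r 0.86), Lonrf1 (0.84), 0610010K14Rik (0.83), Lrp10 (0.82) and Fam168b (0.82), of 11952 genes compared. The 10 points share 2 libraries and differ in depth. Lalba had UMIs only in gCap-like cells of both libraries and in aCap-like and vein-like cells of the B16-F10 library. Rnf11 and Lonrf1 encode proteins with RING fingers, and none of the 5 is among the rCap markers. The rCap marker Inhbb ranked 7, at 0.80. In gCap-like cells Rnf11 was at 132 CPM in the B16-F10 and 104 CPM in the control library.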

How the data were processed

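Cells of lungs from both groups were measured by droplet single-cell RNA sequencing, 1 library each. The deposited files hold the count of UMIs per gene and barcode, with no normalization. The authors made them with Cell Ranger (7.2.0 in the submitters' processing notes, which also name Seurat 4.4.0 and mm10). The study's methods name other versions of Cell Ranger and Seurat, and which made the files was not settled. Whether intronic reads were counted is not given in the sources used here. The study's filters on genes and mitochondrial UMIs were kept. No test was made, since each group has 1 library. Levels are summed UMIs over total UMIs with exact Poisson intervals. Ratios carry exact conditional binomial intervals, and shares carry Clopper-Pearson or Newcombe intervals. All of these are at 95%. Where no cell was positive, the share allowed is 3 over the number of cells, which is not a Clopper-Pearson limit.

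Each Lalba-positive cell was paired without replacement with the Lalba-negative gate cell nearest in total UMIs, with Lalba left out of the totals. Ratios were used where both sums reached 50 UMIs together. Named genes were the 15 highest and 10 lowest with at least 200 UMIs (1 of the lowest is not reported here), all members of the milk, lactose, prolactin and lysozyme lists, the members of each programme list with the largest ratios, genes within 200 kb and the 5 genes most alike in pattern. The selectin genes, Lyve1 and other genes described where their values turned or stood low in a range were chosen after their values were seen. Lalba, the gene lists and the cells compared were chosen with earlier results of these data known, and the thresholds for naming clusters were set after seeing an earlier clustering. Leiden clusters (resolution 0.8) were named from marker lists. A cluster with markers of 2 classes was called mixed and kept out of the vessel types. Cells with the highest doublet scores (6.72% of control cells, 6.66% in the B16-F10 library) were marked and kept, and were removed in an alternative. Free RNA was estimated from genes of other cell types in near-empty barcodes. Scripts were tested on simulated data. Software was Python 3.11.15 with numpy 2.4.6, scipy 1.17.1, pandas 2.3.3, scikit-learn 1.9.0, scanpy 1.11.5, leidenalg 0.10.2 and matplotlib 3.10.9. Gene positions came from GENCODE annotation of GRCm38, and promoter windows from RefSeq.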

Additional observations from a re-analysis of the deposited data

Results flagged for a closer look

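Lalba UMIs also lay in barcodes that the comparisons did not use, and more of them per UMI than in the control. Barcodes of the B16-F10 library with 1 to 100 UMIs stood at 17.5 CPM, on 60 UMIs, against 0.529 CPM in the control library. Those with over 100 UMIs and under 300 genes stood at 7.49 CPM, on 62 UMIs in 59 barcodes, against 0.286 CPM. Barcodes with over 5000 genes, above the study's upper limit, stood at 5.71 CPM, on 99 UMIs in 44 of 645 barcodes, against 0.474 CPM.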

How the results depend on the processing

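No paired analysis was possible because there is 1 library in a group. Of 81 alternatives over 7 results, 57 stayed within the spread or counting error of the value reported, 24 moved and 0 reversed. The log2 ratio of the libraries ran from 4.63 to 7.21, the latter in gate cells with no UMI of other cell types' markers (788 and 1543 cells), where the rCap median by Lalba was 0.88 and the interferon median 0.26. The difference in positive share was 6.35 points in gCap-like clusters, 1.95 after thinning and 2.15 for at least 2 Lalba UMIs. The log2 ratio of gCap-like over aCap-like cells was 5.99 with doublets removed, which takes out the aCap-like cell with 10 UMIs, and 5.23 with marker gates in place of clusters. The difference between the highest and lowest rCap groups was 18.9 points in gCap-like clusters and 8.14 for at least 2 UMIs. With at least 2 Lalba UMIs the rCap, JAK-STAT and interferon medians were 0.82, 0.38 and 0.43. Without depth matching the rCap and JAK-STAT medians were 0.75 and 0.37, and with thinning 0.74 and 0.37. The JAK-STAT median was 0.35 with no upper limit of genes, and the interferon median 0.11 with doublets removed. Inside the cluster led by Lalba the 3 medians were 0.17, 0.11 and 0.39, and outside it they were 0.46, 0.17 and 0.19. In the other gCap-like clusters alone, a comparison not among the 81 alternatives, the interferon median had the opposite sign, at −0.04. Comparisons inside and outside that cluster, without mixed clusters and with at least 2 UMIs by rCap group were chosen after seeing the data. Unless a construction is given above, the cause was not tested. Depth limits the artery-like and LEC-like cells and the 16 control cells of highest rCap score, and mice cannot be told apart from treatment with 1 library per group.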
